A study of Mus musculus with 20 samples.

Results

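Cultures carrying replicate numbers 3 and 4 were compared with cultures carrying replicate numbers 1 and 2 in a total RNA-seq study of C2C12 myotubes, the multinucleated fibres formed by an established mouse myoblast line. All 20 libraries of the study entered as 2 sets, 10 libraries in each, and each of the 5 treatments had 2 libraries in each. Myotubes were differentiated for 5 days in horse serum and then treated for 16 h. The treatments were 7.7 nM b12 hIgG4, a negative control antibody (b12); 7.7 nM 13-3B5 hIgG4, an antibody that activates the receptor MuSK (13-3B5); 0.1 nM neural agrin, the natural activator, with 7.7 nM b12 (Agrin b12); agrin with 7.7 nM 13-3B5xb12, a monovalent inhibiting antibody (Agrin 13-3B5xb12); and agrin with 7.7 nM 11-3F6xb12, another monovalent inhibiting antibody (Agrin 11-3F6xb12). The labels call the 4 libraries of a treatment biological replicates, and are silent on what a shared number means. The sets were chosen from the data: the first principal component of these libraries, which held 20.98% of the variance over 11149 genes, separated the replicate numbers. Expression differences between the sets are therefore given as descriptions, with no test. If the replicate number is the unit that repeats, only 2 numbers stand against 2, a design in which an exact permutation test cannot go below p = 0.333. The labels do not show that the 2 numbers of a set are independent.

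Myotubes form when myoblasts leave the cell cycle, fuse and build sarcomeres, the repeated contractile units of myosin and actin filaments anchored at the Z-disc. Transcription factors of the MyoD and MEF2 families switch on the early structural genes, and the fast fibre, calcium handling and energy metabolism genes come up as the fibres mature. Muscle cells in culture also secrete matrix proteins, cytokines and growth factors of the insulin-like family, and myogenic cultures hold unfused mononucleated cells beside the fibres. In a bulk sample, fewer cells of a type and less RNA per cell cannot be told apart.

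Library totals ranged from 18424881 to 23343903 counts. Along the first principal component the replicates 1-2 lay between -14.3 and -7.36 and the replicates 3-4 between 8.16 and 19.3. Transcripts of the defining muscle genes Myog, Mymk, Ckm, Acta1, Myh3, Des, Ttn and Chrna1 were abundant in every library. On the second component, Agrin 13-3B5xb12 replicate 1 (-30.6) and b12 replicate 2 (-20.8) stood apart from the rest, and Agrin 13-3B5xb12 replicate 1 had the fewest genes with counts, 16261. Agrin b12 replicate 3 held transcripts of liver genes, with 126 counts of Alb and 61 of Ahsg, where no other library had more than 1 count of Alb or 12 of Ahsg. Mitochondrial genes took 30.2 to 39.1% of the counts in replicates 1-2 (median 34.6%) and 27.9 to 32.5% in replicates 3-4 (median 30.0%). Most of this was 1 ribosomal RNA, mt-Rnr2, with medians of 31.6% and 27.4% of the counts. Ribosomal protein genes took 2.06 to 3.17% (median 2.86%) and 3.08 to 3.57% (median 3.40%). The part of these library measures in the differences below was not tested. The number of genes whose sets did not overlap was 246 with the mitochondrial genes and 246 without them. Leaving those genes out alters only the scaling of the others, so this count does not address that part.

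**Figure D1:**
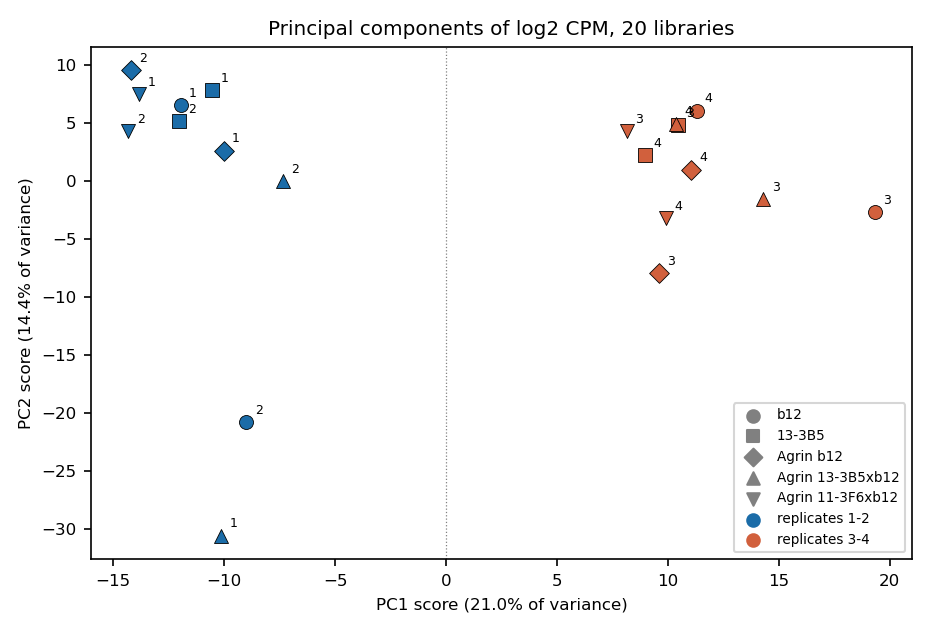
First (x axis) and second (y axis) principal component scores of log2 CPM in the 20 libraries; colour gives the set, the marker gives the treatment and the digit beside each point the replicate number. Replicates 1-2 lie at or below -7.36 and replicates 3-4 at or above 8.16 on the first component, and 2 libraries of replicates 1-2 lie at or below -20.8 on the second.

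Differences are log2 differences, replicates 3-4 minus replicates 1-2, with treatment in the fit, given ± the standard error (SE) of that fit over 20 libraries, which treats the libraries of one number as independent. Levels are CPM, the counts scaled to a common library total, and serve to compare libraries for one gene, not genes with each other. A gene is called apart when the 10 values of one set all lie above the 10 values of the other. Of 14605 genes tested, 246 were apart (1.68%). Replicates 3-4 were higher for 79 of them (0.541% of genes tested) and lower for 167 (1.14%), and 244 of the 246 were protein coding. Past 2-fold were 7 of the higher and 40 of the lower genes. Since the sets were chosen on these values, these shares are background for the lists and not evidence of a difference. Without the 3 libraries that stood apart, 177 genes were apart and higher and 314 apart and lower, 3.32% of the genes tested. Fewer values are less likely to overlap, and this share is the background for the list counts without those libraries.

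The differences between numbers within a set are given beside those between the sets, which the choice of the sets made large. Over 8794 genes whose mean log2 CPM exceeded 3, the median size of the log2 difference was 0.0856 between the sets, 0.0567 between replicates 2 and 1 and 0.0575 between replicates 4 and 3. Between the sets 117 of these genes differed by over 1.5-fold, against 1 gene within each set. The tests within the sets were not used in choosing them. The choice did put like numbers into 1 set, which favours small differences within a set, so these tests are not independent of it. With edgeR's quasi-likelihood test and Benjamini-Hochberg adjustment, 0 genes (0%) passed between replicates 2 and 1, with 458 genes (3.14%) at an unadjusted p under 0.05, and DESeq2 gave 0 as well. Between replicates 4 and 3 the same test passed 0 genes (0%), with 548 (3.75%) at an unadjusted p under 0.05, and DESeq2 gave 0.

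**Figure D2:**
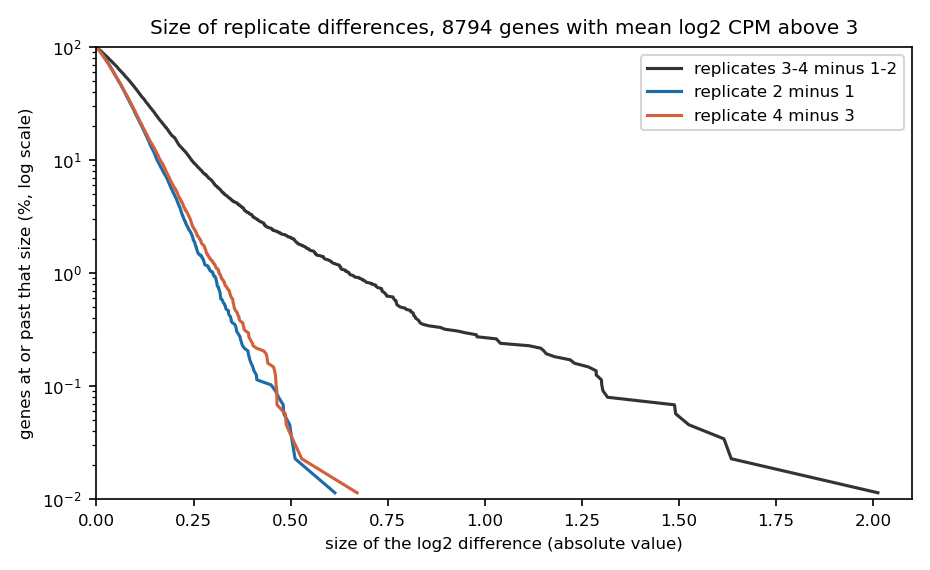
Share of genes (y axis, percent, log scale) whose log2 difference was at least as large as the value on the x axis, for the sets and for the numbers within each set, over 8794 genes whose mean log2 CPM exceeded 3. The curve of the sets runs to larger differences than both curves within a set, with 117 genes past 1.5-fold against 1 and 1.

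Many genes of the contractile apparatus were lower in replicates 3-4. Among 20 tested genes of the fast and adult sarcomere, 5 were apart and lower and none apart and higher, 12 were lower in all 5 treatments and the list's median log2 difference was -0.25, where all genes tested had a median of 0.0064, with 10.6% higher and 10.3% lower in all 5 treatments. Mylk2, the skeletal myosin light chain kinase, had a lowest, median and highest level of 13.8, 16.8 and 18.4 CPM in replicates 1-2 and of 4.18, 4.99 and 7.12 CPM in replicates 3-4. Every library of replicates 3-4 lay below every library of replicates 1-2, a log2 difference of -1.62 ± 0.10. Myl1, a fast alkali light chain of myosin, ran from 1980 to 2986 CPM (median 2747) and from 1394 to 1866 CPM (median 1715), without overlap, a log2 difference of -0.65 ± 0.05. The myosin binding protein gene Mybpc2 (log2 difference -0.83 ± 0.07), the calsarcin gene Myoz1 (-1.12 ± 0.19) and the M-band gene Myom2 (-0.27 ± 0.04) were also apart and lower. Not all of the list moved. The regulatory light chain gene Mylpf (log2 difference -0.07 ± 0.05) and the skeletal actin gene Acta1 (-0.05 ± 0.04), both at high levels, overlapped widely between the sets. Without the 3 libraries that stood apart, 9 of the 20 genes were apart and lower and 1 apart and higher (50% apart, against 3.32% of all genes).

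The slow and embryonic sarcomere list showed a like median, -0.23, with 3 of 24 tested genes apart and lower, none apart and higher, and 11 lower in all 5 treatments. Myl2, the slow and cardiac regulatory light chain, had 127, 169 and 211 CPM as its lowest, median and highest level in replicates 1-2 and 58.2, 71.5 and 107 CPM in replicates 3-4. The sets did not overlap, at -1.18 ± 0.12 on the log2 scale. Myh7b, a slow myosin heavy chain, was lower by a log2 difference of -1.23 ± 0.09 and Tnnt1, the slow troponin T, by -0.68 ± 0.05, both without overlap. The embryonic myosin heavy chain Myh3, which is expressed in young fibres, ran from 1354 to 2131 CPM and from 1297 to 2029 CPM, overlapping over most of its range, with a log2 difference of -0.15 ± 0.10. Ankrd2, a stretch-responsive gene, went the other way, with medians of 33.2 and 50.9 CPM and a log2 difference of 0.62 ± 0.07, and its highest value in replicates 1-2, 39.9 CPM, lay just above its lowest in replicates 3-4, 39.1 CPM. Leaving out the 3 libraries that stood apart, 6 of the 24 genes were apart and lower (25%, against 3.32% of all genes).

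The Z-disc, titin and M-band list held the most apart genes of any list, 9 of 28 tested, all lower, with 19 lower and 0 higher in all 5 treatments and a median of -0.34. Tcap, which caps titin at the Z-disc, had 12.4, 17.6 and 23.1 CPM in replicates 1-2 and 5.46, 7.12 and 9.04 CPM in replicates 3-4. No library of the second set reached the first, and the log2 difference was -1.29 ± 0.10. The actinin-binding gene Pdlim3 went from a median of 356 to 200 CPM (log2 difference -0.84 ± 0.05), Trim63, a ubiquitin ligase of the sarcomere, from 53.3 to 30.5 CPM (-0.76 ± 0.07) and Neb, the nebulin gene that spans the thin filament, from 1049 to 636 CPM (-0.73 ± 0.09), none with overlap. Klhl41, which stabilises nebulin, was apart and lower by -0.69 ± 0.05. Des, the desmin intermediate filament, stayed at a median of 1595 against 1579 CPM, a log2 difference of -0.01 ± 0.03, and titin itself (Ttn) overlapped, at -0.26 ± 0.10. Without the 3 libraries that stood apart, 13 of the 28 genes were apart and lower (46.4%, against 3.32% of all genes).

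Excitation-contraction coupling genes, which release and take up calcium, followed. Of 26 tested, 6 were apart and lower, 18 were lower and 0 higher in all 5 treatments, and the median was -0.23. The calcium pumps Atp2a1 (medians 182 and 122 CPM, log2 difference -0.68 ± 0.07) and Atp2a2 (521 and 378 CPM, -0.47 ± 0.06), the triadin gene Trdn (76.1 and 45.6 CPM, -0.74 ± 0.06) and the voltage sensor Cacna1s (136 and 101 CPM, -0.41 ± 0.04) did not overlap. The pump regulator Mrln had the largest difference of the 6, -1.28 ± 0.16, at medians of 6.14 and 2.65 CPM. The release channel Ryr1 was lower in all 5 treatments but overlapped, at -0.38 ± 0.08. With the 3 libraries left out, 8 of the 26 genes were apart and lower (30.8%, against 3.32% of all genes). For the fast sarcomere, Z-disc and coupling lists, the median centred log2 CPM of each library in replicates 3-4 lay below that of every library in replicates 1-2.

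The myogenic regulator list held no apart gene among 18 tested (median -0.02). Myog, the regulator that drives differentiation, ran from 495 to 624 CPM (median 575) and from 546 to 669 CPM (median 592), overlapping, with a log2 difference of 0.08 ± 0.04. Mef2c was lower in all 5 treatments, with a log2 difference of -0.40 ± 0.05, and Cdh15, the muscle cadherin, higher in all 5, at 0.30 ± 0.04, each with overlapping sets. When the 3 libraries that stood apart were left out, these 2 of 17 tested genes (11.8%, against 3.32% of all genes) no longer overlapped, at -0.39 ± 0.04 for Mef2c and 0.31 ± 0.03 for Cdh15. Of the 18 satellite cell genes tested, Sdc4, a heparan sulfate receptor of satellite cells, was the 1 apart, with 191, 243 and 255 CPM against 282, 300 and 327 CPM and a log2 difference of 0.36 ± 0.04. In that list 1 gene was apart and higher and 1 apart and lower without the 3 libraries (11.1% apart, against 3.32% of all genes). None of 27 genes of the neuromuscular synapse, the site that agrin and MuSK organise, was apart (median -0.03). Without the 3 libraries 1 was apart and lower (3.7%, against 3.32% of all genes). MuSK itself (Musk) had medians of 49.7 and 54.0 CPM with overlap, a log2 difference of 0.11 ± 0.06, and the acetylcholine receptor subunit Chrna1 had 601 and 569 CPM, at -0.01 ± 0.04.

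**Figure D3:**
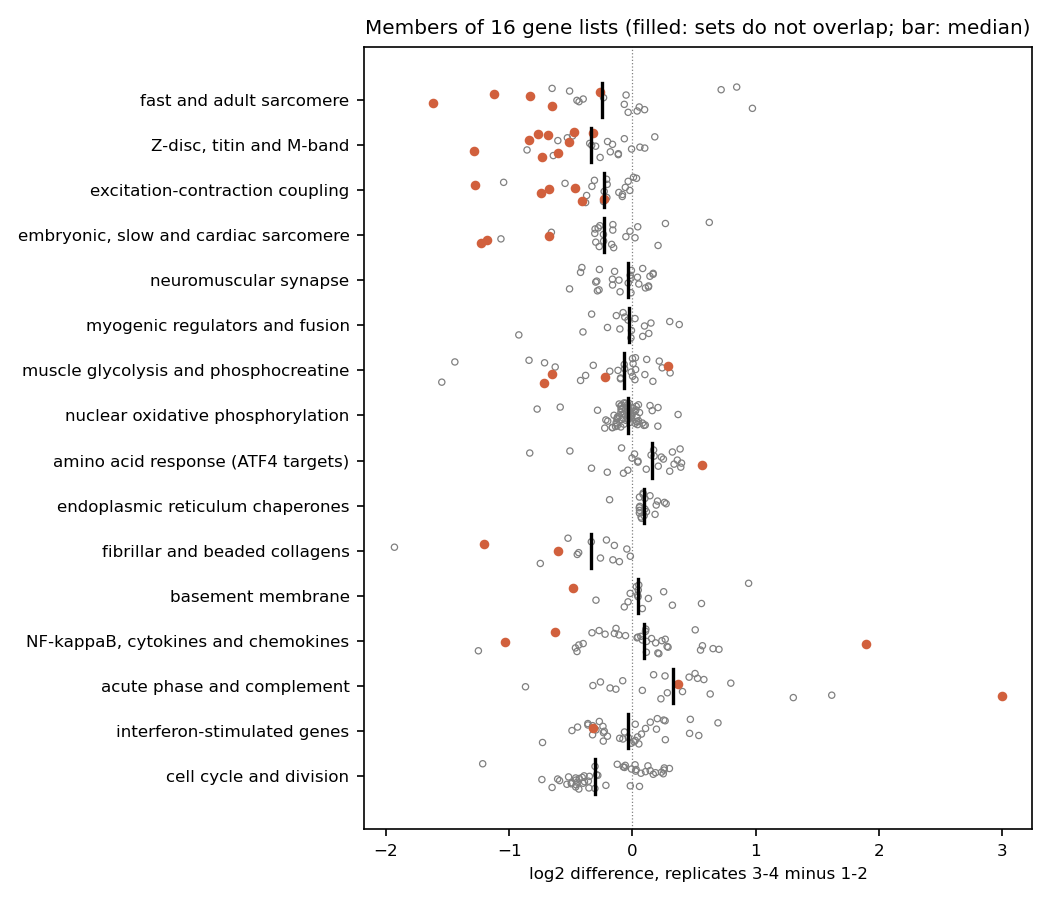
Log2 difference between the sets (x axis) for each tested member of 16 gene lists (rows); filled points are genes whose sets did not overlap, open points overlapped, and the black bar is the list's median. Filled points lie below 0 in the sarcomere, Z-disc and calcium handling rows, while the rows of the myogenic regulators, the synapse and oxidative phosphorylation have none.

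Promoters of the lower muscle genes are given as a description. These genes were chosen as apart and lower on these same values, so their common direction follows from the choice. The motif shares below were not tested, and neither was any part of these factors in the differences. Of the 23 muscle-list genes that were apart and lower, 13 had RefSeq promoter windows (GRCm38.p6, 250 bases before to 50 after a start), and 7 of these (53.8%) held the E-box CAGCTG, the core that MyoD family factors bind, read on both strands. Among all muscle-list genes tested that had a window the share was 36.7% (40 of 109) and among all genes tested 18.4% (1926 of 10455). The MEF2 letters CTANNNNTAG, which cannot overlap with the E-box core, were in 1 of the 13 (7.69%), in 13.8% of the muscle-list windows and in 3.84% of all. A match is a run of letters and does not show binding. Genes of 1 chromosome were not eligible for printing. Among the rest, a gene needed an E-box in the 250 bases before the start and a RefSeq start within 100 bases of the GENCODE gene start. These 250 bases are given 5′ to 3′ for the 3 such apart and lower genes with the largest differences. All are on the plus strand, with CAGCTG and CTANNNNTAG in capitals. They lie at chr8:45885237-45885486, chr4:134314870-134315119 and chr2:69669870-69670119.
Pdlim3: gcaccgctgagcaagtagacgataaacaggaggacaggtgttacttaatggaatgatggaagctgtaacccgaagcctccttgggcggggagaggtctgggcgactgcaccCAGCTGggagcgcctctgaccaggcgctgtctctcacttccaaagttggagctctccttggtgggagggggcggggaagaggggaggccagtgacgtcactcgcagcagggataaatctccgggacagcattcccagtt
Trim63: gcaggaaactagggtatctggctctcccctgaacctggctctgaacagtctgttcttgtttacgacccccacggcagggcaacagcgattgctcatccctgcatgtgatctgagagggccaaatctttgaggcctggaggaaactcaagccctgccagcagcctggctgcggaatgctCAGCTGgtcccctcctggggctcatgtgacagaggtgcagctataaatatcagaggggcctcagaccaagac
Klhl41: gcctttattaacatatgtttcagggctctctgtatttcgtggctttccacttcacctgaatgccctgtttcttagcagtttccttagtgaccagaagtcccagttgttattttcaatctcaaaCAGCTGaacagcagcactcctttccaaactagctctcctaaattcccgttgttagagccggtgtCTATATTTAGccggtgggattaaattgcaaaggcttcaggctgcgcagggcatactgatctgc
Each holds 1 E-box, and the Klhl41 stretch also holds 1 MEF2 match.

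Genes of muscle glycolysis and the phosphocreatine shuttle had 3 of 31 tested genes apart and lower and 1 apart and higher, with 13 lower and 6 higher in all 5 treatments. Ckm, the muscle creatine kinase, had 321, 402 and 455 CPM in replicates 1-2 and 196, 239 and 281 CPM in replicates 3-4. The 2 sets did not meet, and the log2 difference was -0.72 ± 0.06. Pfkm, the muscle phosphofructokinase, went from a median of 354 to 229 CPM, a log2 difference of -0.65 ± 0.04, without overlap. The enolase genes parted: Eno1, the widely expressed isoform, was apart and higher, with medians of 235 and 292 CPM (log2 difference 0.29 ± 0.04), while Eno3, the muscle isoform, was lower in all 5 treatments, with medians of 1140 and 901 CPM (-0.32 ± 0.04) and overlapping sets. Pkm, the pyruvate kinase, had a log2 difference of -0.07 ± 0.04. The counts were 6 of the 31 genes apart and lower and 1 apart and higher without the 3 libraries (22.6% apart, against 3.32% of all genes).

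Carbonic anhydrases and the oxygen carrier of muscle were among the lower genes. Car2 had the largest difference of the apart genes with a mean log2 CPM above 3, with 10.9, 17.2 and 25.9 CPM in replicates 1-2 and 1.77, 4.61 and 5.87 CPM in replicates 3-4. All 10 of the second set lay below the first, at -2.01 ± 0.13 on the log2 scale. Car3, the abundant carbonic anhydrase of slow muscle, was lower by a log2 difference of -1.30 ± 0.13 and the myoglobin gene Mb by -0.77 ± 0.07, both without overlap.

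None of 66 nuclear genes of oxidative phosphorylation and none of 36 genes of the citrate cycle and fatty acid oxidation was apart, with medians of -0.04 and -0.07, and 0 of 9 mitochondrially encoded messenger RNAs was apart. Without the 3 libraries that stood apart, 5 of the 66 oxidative phosphorylation genes (7.58%, against 3.32% of all genes tested) were apart and lower, with a median of -0.12, and 4 of 37 citrate cycle and fatty acid oxidation genes (10.8%). The ATP synthase gene Atp5b had medians of 1319 and 1332 CPM (log2 difference 0.03 ± 0.03). Of the mitochondrial messenger RNAs, mt-Nd1 differed by 0.34 ± 0.05 and mt-Co1 by -0.17 ± 0.05 on the log2 scale, with overlap. Cholesterol synthesis had no apart gene among 24 (median 0.03), Hmgcs1 differing by 0.10 ± 0.06.

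The amino acid response list was mixed, with more genes on the higher side. Of 26 tested genes of the amino acid response governed by the factor ATF4, 1 was apart and higher, none apart and lower, 10 were higher and 3 lower in all 5 treatments, 18 had differences above 0 and 8 below, and the median was 0.16. Phgdh, the first enzyme of serine synthesis, had 84.8, 97.0 and 107 CPM against 124, 139 and 166 CPM, without overlap, a log2 difference of 0.56 ± 0.05. The later serine enzyme Psat1 (log2 difference 0.21 ± 0.04), the asparagine synthetase Asns (0.39 ± 0.05) and the mitochondrial serine hydroxymethyltransferase Shmt2 (0.40 ± 0.06) were higher in all 5 treatments with overlapping sets. Aldh1l2, a mitochondrial folate enzyme outside that list, was apart and higher by 0.65 ± 0.07. In that list Fgf21, a stress hormone of muscle, was lower in all 5 treatments, at -0.83 ± 0.17. Without the 3 libraries that stood apart, 3 of the 26 genes were apart and higher (11.5%, against 3.32% of all genes). Among 20 endoplasmic reticulum chaperone genes, 19 had differences above 0 and 1 below, all small, with a median of 0.09. None was apart, and without the 3 libraries 2 were apart and higher (10%, against 3.32% of all genes). The master chaperone Hspa5 differed by 0.07 ± 0.04. The metallothionein Mt2 was apart and higher (log2 difference 0.52 ± 0.08), while its neighbour Mt1 overlapped, at 0.06 ± 0.09, with medians of 202 and 200 CPM.

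Interstitial collagen genes were the matrix genes with a common sign. All 15 tested fibrillar and beaded collagen genes had differences below 0, 9 of them in all 5 treatments and 2 apart, with a median of -0.33. Col14a1, a collagen that decorates fibrils, had 7.53, 11.9 and 13.8 CPM in replicates 1-2 and 3.68, 4.73 and 7.30 CPM in replicates 3-4. The sets came close but did not overlap, with a log2 difference of -1.20 ± 0.13. Col6a2, a chain of beaded collagen VI, had medians of 84.3 and 57.4 CPM and was apart, at -0.60 ± 0.06, and its partner chain gene Col6a1 was lower in all 5 treatments, at -0.44 ± 0.05. Col1a1, a chain of the main fibrillar collagen, had 27.9, 37.1 and 67.6 CPM against 17.5, 22.2 and 35.6 CPM, overlapping, with a log2 difference of -0.75 ± 0.16. Without the 3 libraries that stood apart, Col1a1 differed by -0.59 ± 0.09 and did not overlap, and 4 of the 15 genes were apart and lower (26.7%, against 3.32% of all genes). The abundant Col3a1 differed by only -0.16 ± 0.04.

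Small leucine-rich proteoglycans, which bind collagen fibrils, had a median of -0.39 over 8 tested genes with none apart. Ogn (log2 difference -0.45 ± 0.05) and Aspn (-0.81 ± 0.12) were lower in all 5 treatments, while Dcn, the decorin gene, differed by 0.08 ± 0.05. In the basement membrane list 1 of 16 genes was apart and lower, Nid2, which links laminin and collagen IV, with medians of 86.6 and 58.4 CPM and a log2 difference of -0.49 ± 0.06. It was also the 1 apart of 16 without the 3 libraries that stood apart (6.25%, against 3.32% of all genes). Col18a1, the source of endostatin, was higher in all 5 treatments, at 0.56 ± 0.07, and Col4a1 differed by 0.08 ± 0.05.

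Inhibitors of matrix proteases went in different directions. Serpine2, a secreted serpin that inhibits thrombin and urokinase, had 8.16, 11.5 and 14.1 CPM against 20.2, 23.1 and 29.9 CPM, without overlap, a log2 difference of 1.11 ± 0.09. Timp3 was apart and lower, with medians of 303 and 197 CPM (log2 difference -0.55 ± 0.05), and Timp1 was higher in all 5 treatments, with medians of 236 and 338 CPM (0.52 ± 0.08), but overlapped. The cross-linking enzyme Tgm2 was apart and lower by -0.30 ± 0.04. Of 30 matricellular genes, Spp1, which encodes the secreted cytokine-like protein osteopontin, was the 1 apart, with 1142, 1497 and 1694 CPM against 1803, 2150 and 2391 CPM and a log2 difference of 0.57 ± 0.06. It was the 1 apart of 28 without the 3 libraries that stood apart (3.57%, against 3.32% of all genes). Csgalnact1, which starts chondroitin sulfate chains, was apart and higher by 0.69 ± 0.06, and Islr, a secreted protein of mesenchymal cells, apart and lower by -1.29 ± 0.10.

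**Figure D4:**
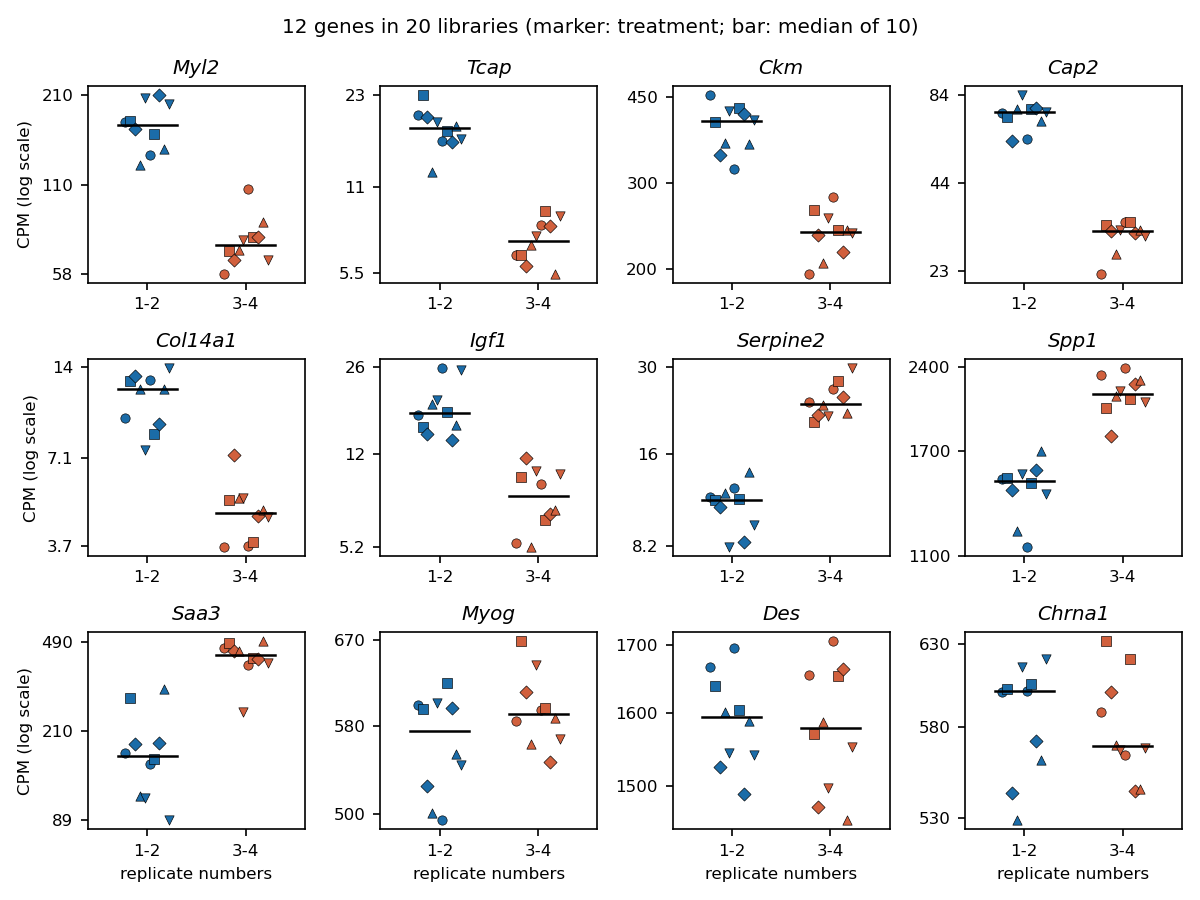
Levels of 12 genes in the 20 libraries (y axes, CPM on a log scale; x axes, replicate numbers of each set); points are libraries, with circles for b12, squares for 13-3B5, diamonds for Agrin b12, upward triangles for Agrin 13-3B5xb12 and downward triangles for Agrin 11-3F6xb12, and the bar is the median of 10. The first 8 panels show no overlap between the sets, Saa3 overlaps narrowly, and Myog, Des and Chrna1 overlap throughout.

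The acute phase list had the largest median of the 4 immune lists examined. Of 22 tested, 2 were apart and higher, none apart and lower, 13 were higher and 0 lower in all 5 treatments, and the median was 0.33. Lcn2, the iron-scavenging lipocalin of the acute phase, was near the detection limit in replicates 1-2, with 0.136, 0.606 and 1.325 CPM, and had 1.64, 3.94 and 7.82 CPM in replicates 3-4. Every library of replicates 3-4 was higher, and the log2 difference was 2.99 ± 0.28 at these low levels. Cp, the copper carrier ceruloplasmin, was apart at a far higher level, with medians of 777 and 1030 CPM (log2 difference 0.37 ± 0.04). Saa3, a serum amyloid A gene, had 88.8, 164 and 314 CPM against 250, 436 and 495 CPM, overlapping between 250 and 314 CPM, with a log2 difference of 1.30 ± 0.17. The haptoglobin gene Hp (log2 difference 1.62 ± 0.24) and the complement gene C3 (0.63 ± 0.18) were higher in all 5 treatments with overlap. Several of these genes are also made by liver, and Agrin b12 replicate 3, which held liver transcripts, is in replicates 3-4. Without it and the other 2 libraries, the log2 difference was 3.10 ± 0.29 for Lcn2, 1.19 ± 0.17 for Saa3 and 1.51 ± 0.26 for Hp. In that comparison 4 of the 22 genes were apart and higher (18.2%, against 3.32% of all genes).

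Cytokines and chemokines were mixed: of 36 tested genes of that list, 1 was apart and higher and 2 apart and lower, with 10 higher and 6 lower in all 5 treatments and a median of 0.09. Without the 3 libraries that stood apart, 1 of 38 tested genes was apart and higher and 2 apart and lower (7.89% apart, against 3.32% of all genes). Il1a, an alarm cytokine, had 0 to 1.318 CPM in replicates 1-2 and 1.34 to 3.32 CPM in replicates 3-4, low levels that did not overlap. The neutrophil chemokines Cxcl5 (medians 326 and 550 CPM, log2 difference 0.70 ± 0.11) and Cxcl1 (125 and 182 CPM, 0.55 ± 0.09) and the stromal chemokine Cxcl12 (35.5 and 58.0 CPM, 0.65 ± 0.10) were higher in all 5 treatments with overlap. Ccl2, the monocyte chemokine, differed less, by 0.21 ± 0.08. Lower without overlap were Il15, a cytokine made by muscle fibres, with medians of 13.4 and 6.05 CPM (log2 difference -1.03 ± 0.11), and Tlr2, a receptor for bacterial lipopeptides, with 24.6 and 16.0 CPM (-0.63 ± 0.08).

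Interferon-stimulated genes showed no common direction. Of 37 tested, 1 was apart, the GTPase gene Irgm1, lower by a log2 difference of -0.32 ± 0.06, and the median was -0.03. With the 3 libraries that stood apart left out, 2 of 38 were apart and lower (5.26%, against 3.32% of all genes). None of 18 antigen presentation genes was apart, and B2m, the light chain of class I molecules, was higher in all 5 treatments by 0.19 ± 0.05 with overlap. Leukocyte markers were scarce: the summed level of the macrophage and leukocyte list was 5.05 to 10.6 CPM (median 8.17) in replicates 1-2 and 8.63 to 12.9 CPM (median 11.7) in replicates 3-4. Ptprc had 3 counts or fewer, Adgre1 2 or fewer, Csf1r 10 or fewer and Cd68 5 to 34 in every library. Cd14 of that list had 4.10 to 9.50 CPM in replicates 1-2 and 6.54 to 10.4 CPM in replicates 3-4. The summed hepatocyte list was 28.0 to 41.9 CPM in replicates 1-2 and 45.5 to 90.8 CPM in replicates 3-4, highest in Agrin b12 replicate 3. Only 3 of its genes passed the filter, among them Ass1, an enzyme also made in other cells, apart and higher by 0.52 ± 0.06. Most of the hepatocyte sum was Ass1. On the scale used for single genes it had 26.9 to 42.5 CPM in replicates 1-2 and 42.7 to 51.9 CPM in replicates 3-4. The neuron and glia list summed to 32.3 to 42.6 and 42.5 to 62.7 CPM, with Rbfox3 at 1 count or fewer. Most of that sum was Tubb3, a tubulin gene, at 27.7 to 39.2 and 39.2 to 55.1 CPM, while the median of the 4 tested genes was -0.43 and S100b was lower, at -1.51 ± 0.29. The part of these markers in the results was not tested.

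Of the 20 imprinted and insulin-like genes tested, 2 were apart and lower and 1 apart and higher, with 9 differences above 0 and 11 below and a median of -0.05. The counts were also 2 and 1 of 20 without the 3 libraries that stood apart (15% apart, against 3.32% of all genes). Igf1, which promotes muscle growth, had 13.6, 17.3 and 25.8 CPM in replicates 1-2 and 5.22, 8.19 and 11.6 CPM in replicates 3-4. The sets were apart, at -1.14 ± 0.13 on the log2 scale. Igf2r, the clearance receptor for IGF2, was apart and lower by -0.47 ± 0.06, and the binding protein gene Igfbp5 was lower in all 5 treatments, at -0.64 ± 0.09, while Igfbp2 was apart and higher by 0.75 ± 0.10. The imprinted genes Peg3 (-0.30 ± 0.05) and Mest (-0.79 ± 0.21) were lower in all 5 treatments. Among growth factor genes outside that list, Fgf7, a growth factor for epithelial cells, had 8.78, 12.1 and 13.7 CPM against 17.9, 22.8 and 28.5 CPM, apart at a log2 difference of 0.98 ± 0.08, and Ereg, a ligand of the epidermal growth factor receptor, was apart and higher by 0.82 ± 0.09.

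No cell cycle gene was apart among 49 tested, though 11 were lower and 5 higher in all 5 treatments, with a median of -0.30. Without the 3 libraries 1 was apart and higher (2.04%, against 3.32% of all genes). Differences were below 0 for 34 of the 49 genes and above 0 for 15. The examples here, 1 of each sign and an inhibitor, were chosen after their values were seen. Ccnb1, the mitotic cyclin, had medians of 9.51 and 4.92 CPM (log2 difference -0.65 ± 0.15), and Rrm2, which makes deoxynucleotides for replication, 40.8 and 50.5 CPM (0.26 ± 0.06), both the same way in all 5 treatments and both overlapping. The cell cycle inhibitor Cdkn1c was lower in all 5, with a log2 difference of -1.21 ± 0.21 at medians of 3.36 and 1.52 CPM.

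The other genes with the largest differences belonged to no list. Of the 12 largest apart genes on the lower side, Asb14, a muscle ubiquitin ligase adaptor (log2 difference -1.63 ± 0.11), Cap2, an actin-binding protein of striated muscle (-1.27 ± 0.06), Gcnt1, a glycosyltransferase (-1.32 ± 0.09), Serpinb6b (-1.53 ± 0.13), Fibin (-1.49 ± 0.09) and Ndrg2 (-1.22 ± 0.11) remain to be given. Cap2 had 60.3, 74.2 and 84.3 CPM against 22.6, 31.0 and 33.1 CPM, so that the highest library of replicates 3-4 was far below the lowest of replicates 1-2. On the higher side, Mal, a membrane proteolipid, had the largest difference with a mean log2 CPM above 3, with 4.79, 5.92 and 9.02 CPM against 9.32, 16.1 and 18.9 CPM and a log2 difference of 1.30 ± 0.11. The others were Smpdl3b, a membrane phosphodiesterase (0.74 ± 0.12), Apobec1, a cytidine deaminase of messenger RNA (0.72 ± 0.08), Ly6e (0.71 ± 0.06), Glrx, the glutaredoxin (0.65 ± 0.08), and Syt13 (0.58 ± 0.05). The sets of Smpdl3b nearly met, with a highest value of 8.61 CPM in replicates 1-2 and a lowest of 8.62 CPM in replicates 3-4, and without the 3 libraries that stood apart they overlapped, at a log2 difference of 0.58 ± 0.11.

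**Figure D5:**
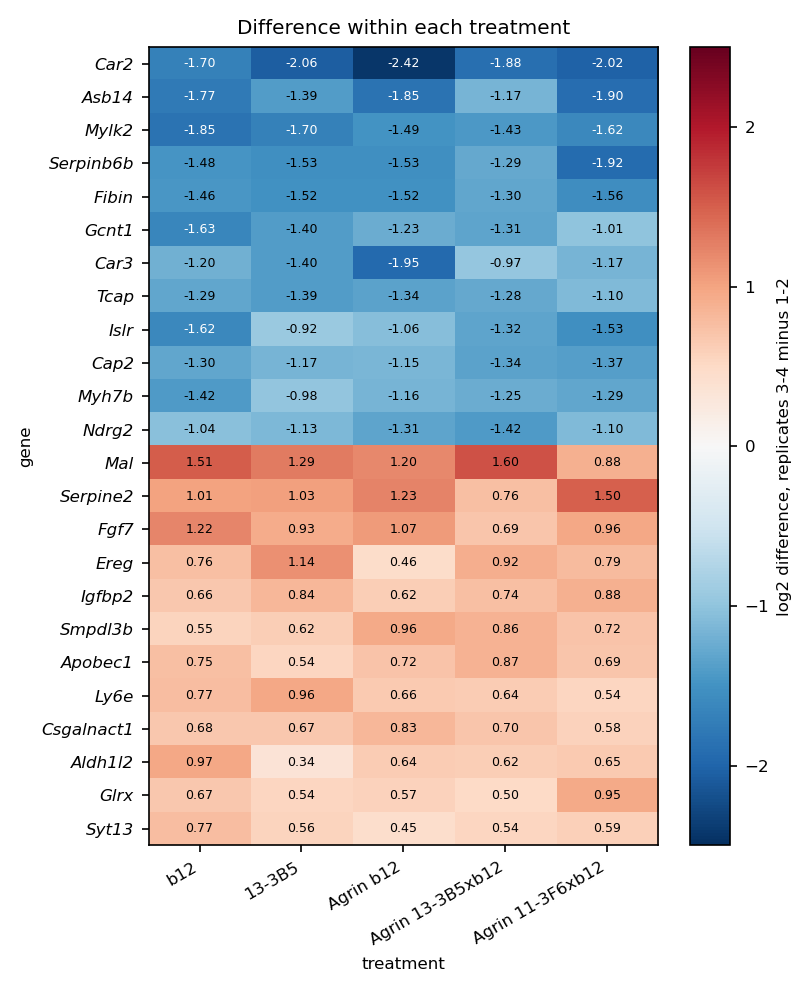
Log2 difference between the sets within each treatment (columns, 2 libraries against 2) for the 12 lower and 12 higher apart genes with the largest differences (rows); colour and printed value give the difference. Each row has 1 sign across the 5 treatments, which follows from choosing genes whose sets do not overlap.

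Whether the difference between the sets depended on the treatment was tested with an interaction term, which was not itself used in choosing the sets. The choice did favour a separation shared by all 5 treatments, and so few interactions. This test is therefore not independent of the choice. With edgeR's quasi-likelihood test and Benjamini-Hochberg adjustment, 1 gene of 14605 passed (0.00685%), with 709 genes (4.85%) at an unadjusted p under 0.05. It was Myh4, the fastest skeletal myosin heavy chain (adjusted p = 0.0221). In Agrin 11-3F6xb12 its replicates 1-2 had 120 and 121 CPM and its replicates 3-4 173 and 198 CPM, while in Agrin 13-3B5xb12 they had 175 and 181 CPM against 136 and 136 CPM. The log2 difference was therefore 0.62 in the first and -0.38 in the second treatment, with 0.06 in b12, 0.16 in 13-3B5 and 0.05 in Agrin b12. The count rested on single libraries, since it was 182 genes without Agrin 13-3B5xb12 replicate 2, 41 without b12 replicate 1, 4 without Agrin 13-3B5xb12 replicate 1 and 3 without b12 replicate 2, and 0 without any one of 8 other libraries. The first 2 of these omissions leave a library that stood apart as the only one of its treatment and set.

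Including the sets in the fit changed what could be seen of the treatments. The sets were chosen from the first principal component of these libraries, so that factor takes up much of their variance. The counts and adjusted p-values with the set in the fit depend on this choice. With treatment as the only factor, edgeR's quasi-likelihood test passed 0 genes after Benjamini-Hochberg adjustment, with 329 at an unadjusted p under 0.05. With the set as a second factor 5 genes passed (0.0342%), with 609 at an unadjusted p under 0.05. They were Ogn (adjusted p = 4.10e-08), Spon2, a secreted matrix protein (5.94e-05), mt-Nd1 (0.0139), Aspn (0.0462) and the tetraspanin gene Tspan8 (0.0462). Against b12, Ogn was higher by a log2 difference of 0.64 in Agrin 11-3F6xb12 and differed by -0.20 in Agrin 13-3B5xb12, and Spon2 by 0.69 and -0.27. Ogn, Spon2, Aspn and Tspan8 were also lower in replicates 3-4 in all 5 treatments, Spon2 by -0.57 ± 0.07 and Tspan8 by -0.81 ± 0.08 on the log2 scale. For Ogn the levels in Agrin 11-3F6xb12 were 591 and 707 CPM in replicates 1-2 and 512 and 453 CPM in replicates 3-4, against 432 and 425 CPM and 283 and 316 CPM in b12. The treatment lay above b12 in both sets, and its lower library of the second set lay only slightly above the libraries of b12 in the first. With the replicate number in place of the set as the replicate block, 2 genes passed, both among the 5, and DESeq2 with the set gave 11. Leaving out any 1 library gave between 2 and 5 genes, and leaving out the 3 that stood apart gave 13.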

How the data were processed

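Total RNA was measured in 20 libraries of C2C12 myotubes. The authors deposited one table of raw counts, a whole number per gene and library. Trim Galore 0.6.6, cutadapt 2.10, STAR 2.7.6a, HTSeq 0.12.4 and DESeq2 1.32.0 and the build GRCm38 are named in the submitters' processing notes, without their roles. Gene positions come from GENCODE M21, where 26667 of the 26722 gene IDs were found, and promoters from RefSeq (GRCm38.p6).

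Counts were analysed with edgeR 4.0.16 in R 4.3.3. The filterByExpr function (minimum count 10, minimum total 15) left 14605 genes, libraries were scaled with TMM factors, and log2 CPM used a prior count of 2. Robust quasi-likelihood fits held treatment and set, their interaction, or replicate number and treatment. F-tests were two-sided, with Benjamini-Hochberg adjustment over all 14605 genes and a threshold of 0.05. The difference between the sets was estimated and not tested. The members and the 38 gene lists (946 genes) were chosen with earlier results of these data known. Genes named by rule were the 12 largest higher and 12 largest lower apart genes with a mean log2 CPM above 3, up to 4 apart and 3 highest-level members of each list, up to 5 genes passing each test, and Musk, Myog, Myh3, Col1a1 and Ccl2. Other genes were chosen after their values were seen. Replicate pairs of 1 treatment and set differed by more than sampling noise, so each library was counted once. The labels give each treatment the numbers 1 to 4, but libraries sharing a number correlated (mean r = 0.195) no more than libraries of the other number of the same set (0.201). The fitting code was checked on simulated data. Totals of 18424881 to 23343903 counts limit precision for genes near 1 CPM.

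Alternatives were DESeq2 size factors, DESeq2 1.42.0, no filter, removal of mitochondrial genes, of single libraries, of 3 libraries together and of whole replicate numbers, a replicate block, and values after subtraction of treatment means.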

Additional observations from a re-analysis of the deposited data

Results flagged for a closer look

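In 246 groups of 10 libraries (117 genes and 6 library measures in each set), 22 had a lowest or highest library far from the others for its range. Chance flags about 1 in 20 groups. No cause was tested.

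Of the library measures, b12 replicate 3 had the lowest total count, 18424881, where the next of replicates 3-4 had 21774545, and Agrin 13-3B5xb12 replicate 1 had the lowest share of ribosomal protein counts, 2.06%, where the next had 2.60%.

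Several of the distant values fell in the 3 libraries that stood apart. These also had the highest Spearman correlations between exon length and the difference of each gene from its mean over libraries. The values were 0.372 in b12 replicate 2, 0.342 in Agrin 13-3B5xb12 replicate 1 and 0.196 in Agrin b12 replicate 3. The next was 0.0987, in b12 replicate 3. The part of gene length in the distant values was not tested. In b12 replicate 2, Neb was high at 1581 CPM, Atp2a2 at 697 CPM, Ryr1 at 251 CPM and Musk at 66.0 CPM, while Sdc4 was low at 191 CPM and Hspa5 low at 805 CPM. In Agrin b12 replicate 3, Neb was high at 949 CPM and Col14a1 high at 7.30 CPM, and Car3 was low at 1.73 CPM and Cdh15 low at 282 CPM. In Agrin 13-3B5xb12 replicate 1, Mylpf was low at 1894 CPM and Mt2 low at 26.1 CPM.

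Other libraries gave the rest. Saa3 was low in Agrin 11-3F6xb12 replicate 3, at 250.2 CPM, and Tspan8 was high there, at 32.2 CPM. Mal was low in Agrin 11-3F6xb12 replicate 4, at 9.32 CPM. Serpinb6b was high in Agrin 11-3F6xb12 replicate 1, at 36.0 CPM. Acta1 was high in b12 replicate 4, at 2528 CPM, and Tgm2 low in b12 replicate 3, at 57.1 CPM. The mitotic kinase gene Plk1 was high in Agrin b12 replicate 2, at 2.58 CPM, and Hp high in 13-3B5 replicate 1, at 3.17 CPM. 

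Myh4 was the gene whose difference between the sets varied with the treatment in edgeR's quasi-likelihood interaction test, with an adjusted p of 0.0221.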

How the results depend on the processing

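The 246 apart genes were 249 with DESeq2 size factors, 248 without a filter, 246 without mitochondrial genes and 252 to 306 when any 1 library was left out (80 to 106 higher, 167 to 207 lower). They were 491 without the 3 libraries that stood apart (177 higher, 314 lower), 416 after subtraction of treatment means (151 higher, 265 lower) and 428 to 495 without a whole replicate number (157 to 179 higher, 260 to 316 lower); the first and last of these compare fewer libraries. With the replicate block, which changes the estimates and not the levels, the count was 246. Over 5534 values of single genes under 29 alternatives, none of the 63 apart genes followed changed sign, and 1 value, Myoz1 without replicate 4 (-1.54), moved by more than the spread within the sets. Most alternatives leave out libraries, which can hardly reverse a gene whose sets do not overlap. The unchanged signs were therefore largely fixed by the choice of these genes. The median of the imprinted and insulin-like list, -0.05, was 0.0035 without a filter.

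For the interaction, 1 gene passed, against 1 with the replicate block, 3 with DESeq2, 61 without a filter, 12 without the 3 libraries, 0 to 182 without any 1 library and 0 to 236 without a whole replicate number. For treatment with the set in the fit, 5 genes passed, against 3 with DESeq2 size factors, 120 without a filter, 2 without mitochondrial genes, 13 without the 3 libraries, 2 with the replicate block, 11 with DESeq2, 0 with treatment alone, 2 to 5 without any 1 library or whole number. Between replicates 2 and 1, 5 genes passed without a filter and 0 under every other alternative; between 4 and 3, 9 without a filter, 3 without the 3 libraries and 0 otherwise. The causes were not tested. At 1 CPM a library holds about 20 counts, so small differences in genes such as Il1a and Lcn2 are limited by depth.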
